A study of Zea mays with 9 samples.

Results

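The genes described here are those whose transcript level moved the same way in dcl1-2 plants in 2 parts of the maize shoot apex, the central zone (CZ) of the shoot apical meristem and the third-youngest leaf primordium (P3). They were sought among 18883 of the 45498 gene and precursor models of the count table, those with a mean RPM (reads per 1000000 counted) of at least 1 in dcl1-2 or wild type in the CZ and likewise in P3. An additive model of tissue plus genotype gave 1 averaged dcl1-2 effect per gene from all 8 RNA-seq libraries, and each tissue was also fitted by itself. A gene was called at a Benjamini-Hochberg adjusted p under 0.05 with at least a 2-fold change, and 24 genes were called, of which 19 were higher and 5 lower in dcl1-2.

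The study asked how far miRNA accumulation in the meristem depends on the processing of precursors, and used the mutant to compare precursor levels between meristem and leaf. The groups were dcl1-2 CZ, wild-type CZ, dcl1-2 P3 and wild-type P3, with 2 libraries each, all taken by laser microdissection from the apices of 14-day-old seedlings, dcl1-2 plants and their wild-type siblings. The dcl1-2 plants carried a hypomorphic allele of DCL1, spelled dc1-2 in the sample labels, introgressed into the B73 inbred, and the strain of both genotypes is given as B73, so that sequence linked to DCL1 can differ between the genotypes along with the allele. RNA was linearly amplified in all 4 groups, CZ libraries were sequenced from single ends and P3 libraries from paired ends, so that tissue and read layout cannot be told apart.

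Each CZ library held 24753974 to 30327603 counts, each P3 library 8626824 to 10328582. Thus 1 RPM stood for about 25 to 30 counts in CZ libraries but 9 to 10 in those of P3. The 2 libraries of a group correlated at r = 0.970 to 0.982 across genes on the log2(RPM + 1) scale, and all 4 pairs differed by more than counting noise. The tissue labels matched their markers: kn1, the homeobox gene of meristem identity, had 970 to 1215 RPM in CZ libraries but 2.07 to 5.13 RPM in P3 libraries. The summed level of 21 YABBY, KANADI and rs2 genes, which act in leaf polarity and outgrowth, was 148 to 172 RPM in CZ libraries but 574 to 748 RPM in P3 libraries. Within P3, the summed level of 5 epidermal HD-ZIP IV genes was 492 and 510 RPM in dcl1-2, against 374 and 372 RPM in wild type, and its part in the changes below was not tested.

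DCL1 is the nuclear Dicer-like RNase III that cuts miRNAs out of the stem-loops of their long primary transcripts. A mature miRNA then guides an Argonaute protein, chiefly AGO1, to complementary transcripts, which are cleaved or repressed. With less DCL1 activity, uncut precursors can accumulate while transcripts that miRNAs normally cleave can rise. DCL1 and AGO1 are themselves targets of miR162 and miR168. Because a fall in cells of a type and a fall in RNA per cell look alike in bulk samples, the changes below are changes in the share of counted RNA.

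The 6 called precursors carry 4 mature sequences, shown here as deposited for the wild-type apex small RNA library, with the seed (bases 2 to 8, the stretch that matters most for target choice) in capitals.
miR171d and miR171e: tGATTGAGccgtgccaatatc
miR168a and miR168b: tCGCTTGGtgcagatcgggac
miR167c: tGAAGCTGccagcatgatcta
miR166b: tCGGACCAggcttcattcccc
The MIR171d and MIR171e precursors give the same mature miRNA, as do MIR168a and MIR168b, and the 4 seeds differ from each other. In the order shown, these sequences had 1852, 16635, 8222 and 2139473 reads in that library, each sequence standing under 4, 2, 4 and 7 miRNA names. miR171 targets GRAS factors, miR168 targets AGO1, miR167 targets auxin response factors and miR166 targets HD-ZIP III genes.

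The 24 called genes were 0.127% of the genes tested (edgeR's quasi-likelihood test), the 19 higher ones 0.101% and the 5 lower ones 0.0265%. All 24 had the same sign in each tissue fitted by itself, and in all 24 both dcl1-2 libraries lay on 1 side of both wild-type libraries in the CZ and again in P3. Over all genes tested, 7.77% met this criterion of no overlap in the same direction, 3.46% higher and 4.31% lower in dcl1-2. The 24 were selected by their averaged change in these same libraries, so meeting it describes them and adds no support. Of the 24, 12 lay at 6 miRNA precursor loci, 5 others within 5 Mb of DCL1 and 7 elsewhere. By the adjusted p alone, without the fold change, 29 genes (0.154%) passed, 24 higher and 5 lower, and the genes nearest to the 2-fold line were OBF1 below it, at a log2 fold change of 0.99, and GRMZM2G461427 beyond it, at -1.04. The number called was 9 without wild-type P3 replicate 1, 10 without wild-type P3 replicate 2 and 14 without dcl1-2 P3 replicate 1, and between 17 and 32 without any of the other 5 libraries.

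**Figure D1:**
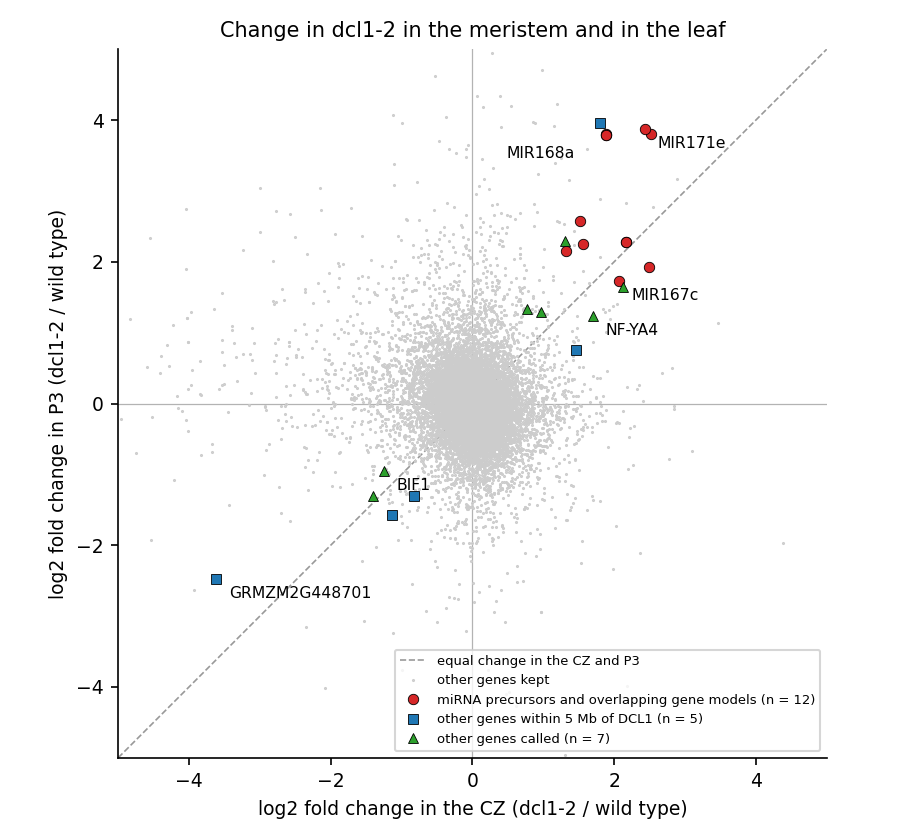
Each point is a gene, with its log2 fold change (dcl1-2 over wild type) in the CZ on the x axis and in P3 on the y axis, both from fits within the tissue. The 24 called genes (red circles, blue squares, green triangles) lie in the upper right or lower left, most of the red precursor points lie above the dashed line of equal change, and 59 genes fall beyond the axes, which end at 5.

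The change was larger in size in P3 than in the CZ for 16 of the 24, and for 14 of the 19 higher genes. Fitted within 1 tissue, 16 of the 24 passed in the CZ, where 0.292% of 19897 genes passed, and 21 in P3, where 4.5% of 22498 genes passed. The number that passed in both was 13, with 3 in the CZ alone and 8 in P3 alone. These within-tissue values use the same libraries as the averaged effect and are given for its parts.

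A stricter test took the larger of the 2 within-tissue p-values for genes that moved the same way. It was passed by 4 genes, 0.0212% of those tested: MIR167c (adjusted p = 0.00483), the gene model GRMZM5G801939 inside it (0.00648), MIR171e (0.00648) and the gene model GRMZM2G092592 inside it (0.00648), so that 2 loci passed. MIR168a, MIR168b and NF-YA4 each had an adjusted p of 0.0696 in this test. Without wild-type CZ replicate 2 this test passed 17 genes, and without any one other library 4 or 5.

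The DCL1 transcript itself, whose product the allele weakens, was higher in both dcl1-2 libraries of each tissue. It had 84.0 and 91.7 RPM in dcl1-2 CZ, against 65.4 and 62.2 RPM in wild-type CZ. The P3 libraries had 140.7 and 136 RPM in dcl1-2, against 73.2 and 100.6 RPM in wild type. The averaged log2 fold change was 0.61 ± 0.12 (SE), which did not pass (edgeR adjusted p = 0.117), whereas DESeq2 gave 0.0022 and limma-voom 0.0499. An edgeR model with 4 groups, which fits a change per tissue, gave their average contrast an adjusted p of 0.0119. In P3 alone the change of DCL1 passed, at 0.74 ± 0.15 (adjusted p = 0.0114), and in the CZ it was 0.43 ± 0.14 (adjusted p = 0.272). The test of the difference between the tissues gave an adjusted p of 0.457. Because the allele's own effect on its RNA is not known from these data, the level does not check the genotype labels. The site through which miR162 pairs with DCL1 mRNA, with the bases that match the miR162 seed in capitals, and the miRNA itself read as follows.
DCL1 site: uggaugcagagguUUUAUCGa
miR162: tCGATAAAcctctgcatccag
The MIR162 precursor was at 10.6 and 8.09 RPM in dcl1-2 CZ, against 8.47 and 10.3 RPM in wild-type CZ, and at 5.29 and 12.1 RPM in dcl1-2 P3, against 22.7 and 28.2 RPM in wild-type P3. It overlapped between genotypes in the CZ (log2 fold change -0.04 ± 0.29, adjusted p = 0.981) and fell in P3 (-1.46 ± 0.33, adjusted p = 0.0188). The averaged value was -0.72 ± 0.34 (adjusted p = 0.708), and the difference between tissues did not pass (adjusted p = 0.158).

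Of the 24 called genes, 6 were precursors and 6 were gene models overlapping them. Of the precursor models in the table, 23 were kept, 2 reached the level in the CZ alone, 10 in P3 alone and 106 in neither. Of the 23, 7 rose and 0 fell at an adjusted p under 0.05 in the additive edgeR fit, the 7 being the 6 called precursors and MIR167d, just under the 2-fold line. DESeq2 passed 11 of the 23 and limma-voom 10, beside 134 and 62 of the 18883 genes kept. The median log2 fold change of the 23 was 1.134 averaged, 0.67 in the CZ and 1.60 in P3, against 0.00, -0.01 and -0.03 over all genes kept. In 12 of the 23 (52.2%) both genotypes were apart and higher in dcl1-2 in both tissues, beside 3.46% of all genes. Of these 12, MIR171d and MIR166b were kept in the CZ through dcl1-2 alone, with wild-type means of 0.950 and 0.682 RPM. MIR164d and MIR319c were so in P3, with wild-type means of 0.329 and 0.522 RPM. Their rise let them through the filter, so this share and the medians do not test it. MIR172c in the CZ and MIR169c in P3 were kept through wild type alone.

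MIR171e had the largest averaged rise of the 24 genes, and it stands on chromosome 1 at chr1:7954673-7955963. It had 47.8 and 30 RPM in dcl1-2 CZ, against 6.89 and 7.21 RPM in wild-type CZ. In P3 it had 150.3 and 154 RPM in dcl1-2, against 7.76 and 14.1 RPM in wild type. All 4 dcl1-2 libraries were above all 4 wild-type libraries. The log2 fold change was 3.15 ± 0.30 averaged (adjusted p = 0.00122), 2.43 ± 0.26 in the CZ and 3.88 ± 0.21 in P3, and the rise was larger in P3 (CZ minus P3 -1.46 ± 0.35, adjusted p = 0.0396). The gene model GRMZM2G092592, which lies inside the precursor on the same strand, shares its reads and rose by 3.14. MIR171e is 3.34 Mb from DCL1, so its rise cannot be told apart from an effect of the linked introgressed segment.

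MIR171d, on chromosome 9 at chr9:126243462-126244685, gives the same mature miRNA and is not linked to DCL1. Its level was 4.04 and 4.68 RPM in dcl1-2 CZ, against 1.19 and 0.714 RPM in wild-type CZ. The P3 values were 132 and 136 RPM in dcl1-2, against 29.5 and 28.3 RPM in wild type. The rise was nearly the same size in both tissues, 2.16 ± 0.53 in the CZ and 2.28 ± 0.15 in P3, though the CZ change did not pass by itself (adjusted p = 0.142). Averaged, it was 2.25 ± 0.15 (adjusted p = 8.5e-05). The CZ values rest on 19 to 118 counts, and the model GRMZM2G051942 has the same limits and the same count in every library, so the pair is 1 measurement.

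The precursors of miR168, the miRNA that limits AGO1, both rose. MIR168a, at chr5:74338821-74340648, had 16.8 and 18.7 RPM in dcl1-2 CZ, against 4.02 and 5.33 RPM in wild-type CZ. P3 levels were 35.01 and 37.9 RPM in dcl1-2, against 2.38 and 3.13 RPM in wild type. Its averaged log2 fold change was 2.76 ± 0.36 (adjusted p = 0.00937), with 1.89 ± 0.28 in the CZ and 3.79 ± 0.28 in P3, a difference that passed (CZ minus P3 -1.93 ± 0.39, adjusted p = 0.0188). The wild-type P3 libraries held only 23 and 27 reads of it, and the averaged call was lost without either of them (adjusted p = 0.0538 and 0.0606). The models GRMZM5G899308 and GRMZM2G049727 cover the same interval, the first on the other strand with the same count in every library, so reads were counted without regard to strand there and the 3 calls are 1 measurement.

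MIR168b, at chr4:239094106-239095681, had 46.3 and 51.0 RPM in dcl1-2 CZ, against 16.8 and 21.2 RPM in wild-type CZ. Its P3 levels were 142 and 131 RPM in dcl1-2, against 30.1 and 34.3 RPM in wild type. It rose by 1.75 ± 0.18 averaged (adjusted p = 0.00143), 1.32 ± 0.20 in the CZ and 2.15 ± 0.15 in P3, and the difference between tissues did not pass (adjusted p = 0.0715). Both miR168 precursors thus passed within each tissue (adjusted p = 0.0236 and 0.0234 in the CZ). The AGO1 gene GRMZM2G441583, a miR168 target, was at 331 and 363 RPM in dcl1-2 CZ, against 275 and 288 RPM in wild-type CZ, and at 130.0 and 132 RPM in dcl1-2 P3, against 112 and 129 RPM in wild-type P3. These were apart in both tissues, but the change of 0.25 ± 0.09 did not pass (adjusted p = 0.616). The other kept miR168 target, the AGO1 gene GRMZM2G039455, was apart and lower in the CZ and overlapped in P3. It had 55.8 and 55.4 RPM in dcl1-2 CZ, against 68.3 and 67.3 RPM in wild-type CZ (averaged -0.06 ± 0.14, adjusted p = 0.956). The AGO1 genes AC209206.3_FG011 and GRMZM2G162525 overlapped in the CZ, with averaged values of 0.22 and 0.10 that did not pass.

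MIR167c, at chr5:4303436-4305645, rose to a like degree in both tissues. It had 57.0 and 63.7 RPM in dcl1-2 CZ, against 15.9 and 12.3 RPM in wild-type CZ. Levels in P3 were 200.2 and 197 RPM in dcl1-2, against 72.0 and 53.1 RPM in wild type. It rose by 1.91 ± 0.15 averaged (adjusted p = 0.000233), by 2.07 ± 0.19 in the CZ and by 1.73 ± 0.17 in P3, and the CZ minus P3 difference of 0.33 had an adjusted p of 0.566. Its relative MIR167d, at chr1:287723275-287729259, had 28.6 and 33.5 RPM in dcl1-2 CZ, against 22.1 and 17.8 RPM in wild-type CZ, and 511 and 488 RPM in dcl1-2 P3, against 232 and 195 RPM in wild-type P3. That is an averaged rise of 0.97 ± 0.16 (adjusted p = 0.0474), of which the CZ part alone did not pass (0.61 ± 0.21, adjusted p = 0.296). MIR167d passed the adjusted p in 2 of the 8 fits with 1 library left out (up to 0.236, without wild-type P3 replicate 1).

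MIR166b, at chr1:223213542-223215622, was scarce in the meristem in both genotypes. Its CZ values were 0.970 and 3.05 RPM in dcl1-2, against 0.725 and 0.639 RPM in wild type, and rest on 17 to 77 counts. In P3 it had 114 and 124 RPM in dcl1-2, against 19.7 and 22.0 RPM in wild type. The averaged rise of 2.25 ± 0.31 (adjusted p = 0.0146) stood beside 2.58 ± 0.16 in P3 and a CZ change of 1.52 ± 0.74 that did not pass (adjusted p = 0.511). It passed in 4 of the 8 fits with 1 library left out, all 4 of them without a CZ library, and reached an adjusted p of 0.146 without wild-type P3 replicate 1. The called model GRMZM2G150351 overlaps MIR166b on the same strand. It was kept in the CZ through dcl1-2 alone, with a wild-type mean there of 0.55 RPM. MIR166d, a paralog of MIR166b with the same mature sequence, had 0.242 and 13.0 RPM in dcl1-2 CZ, against 3.86 and 1.88 RPM in wild-type CZ. In P3 MIR166d had 615 and 595 RPM in dcl1-2, against 56.5 and 64.0 RPM in wild type. It was thus apart in the leaf and overlapping in the meristem. Its averaged effect did not pass with additive edgeR or DESeq2 (adjusted p = 0.476 and 0.535), whereas limma-voom passed it (0.0198).

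**Figure D2:**
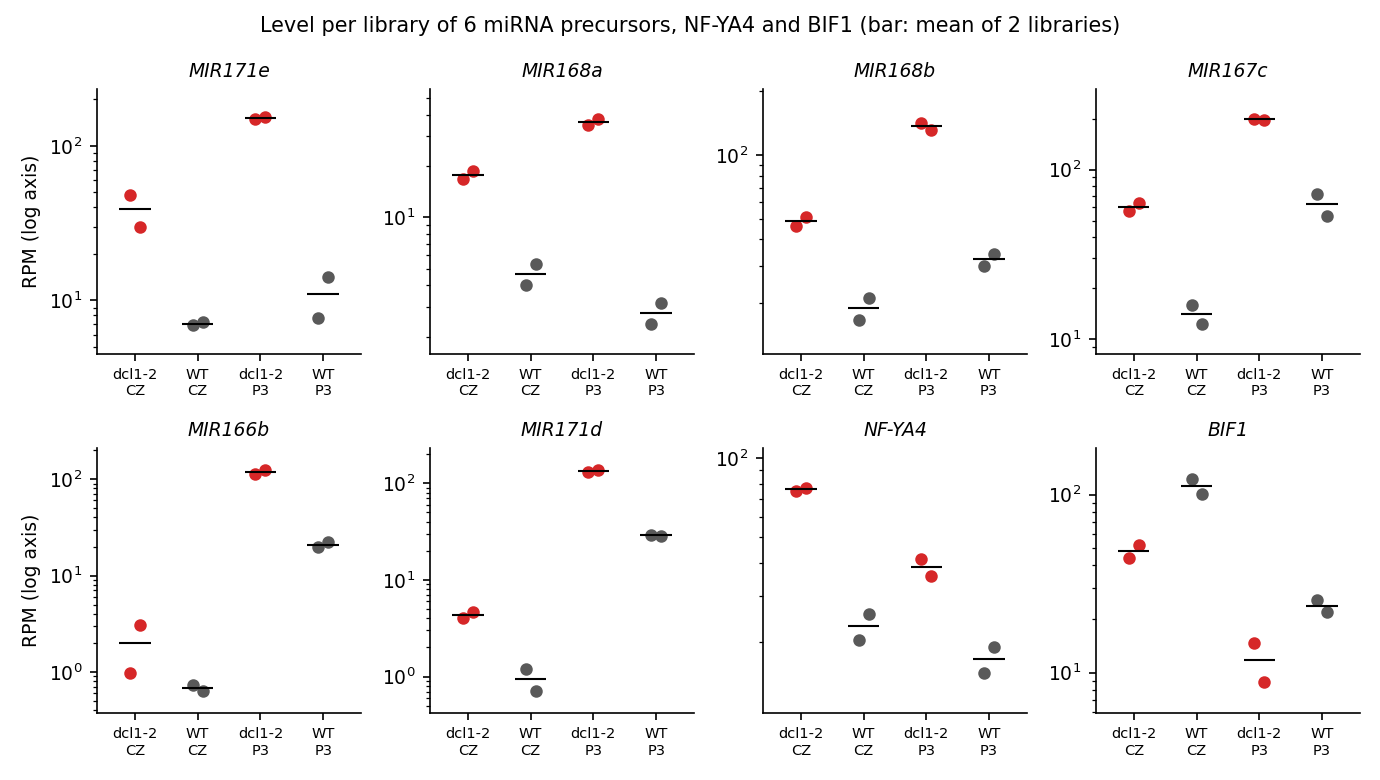
Level in RPM (log axis, a separate range in each panel) in each library, with dcl1-2 in red, wild type in grey and the bar at the mean of the 2 libraries. In the 6 precursors and NF-YA4 both red points lie above both grey points in each tissue, and in BIF1 below them.

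Another 5 precursors were apart and higher in both tissues without passing the additive edgeR test, and they were MIR159a, MIR159f, MIR164d, MIR319c and MIR394a. DESeq2 passed all of them but MIR164d, with adjusted p from 0.000217 (MIR159f) to 0.0365 (MIR394a). Limma-voom passed MIR159a (adjusted p = 0.0125) and MIR319c (0.0196). For 2 of the 5 the rise differed in size between the tissues. MIR394a had 26.1 and 33.5 RPM in dcl1-2 CZ, against 15.8 and 15.8 RPM in wild-type CZ, and 95.1 and 70.3 RPM in dcl1-2 P3, against 4.97 and 6.14 RPM in wild-type P3. Its log2 fold change was 0.88 ± 0.21 in the CZ and 3.96 ± 0.22 in P3 (CZ minus P3 -3.10 ± 0.31, adjusted p = 0.000352). An additive model counts such a gap between tissues as error, and the averaged value of 2.30 ± 0.52 had an adjusted p of 0.234. The average contrast of the edgeR model with 4 groups passed MIR394a (adjusted p = 2.9e-06), MIR159a (3.8e-06) and MIR159f (0.00767). It did not pass MIR164d (0.253) or MIR319c (0.0738).

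MIR159a, whose miRNA targets MYB factors, had 166 and 176 RPM in dcl1-2 CZ, against 93.6 and 116 RPM in wild-type CZ. P3 levels were 1619 and 1480.0 RPM in dcl1-2, against 403 and 350.3 RPM in wild type. The changes were 0.67 ± 0.15 in the CZ and 2.104 ± 0.13 in P3, and they differed between the tissues (CZ minus P3 -1.45 ± 0.20, adjusted p = 0.00234). MIR319c had 25.7 and 31.2 RPM in dcl1-2 CZ, against 11.3 and 7.55 RPM in wild-type CZ, and was at 0 to 2.13 RPM in all 4 P3 libraries, with 0 and 9 counts in wild type.

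Across the 23 precursors, 16 were positive in both tissues, 4 negative in both and 3 of opposite sign, and the P3 value was the higher one for 17. The test of the difference was passed by 4 of the 23 (MIR394a, MIR159a, MIR168a and MIR171e), beside 3.2% of all genes tested, each with the larger rise in P3. The precursors negative in both tissues, MIR156k, MIR162, MIR169c and MIR172c, had averaged adjusted p-values between 0.708 and 0.843 and overlapping genotypes in at least 1 tissue.

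**Figure D3:**
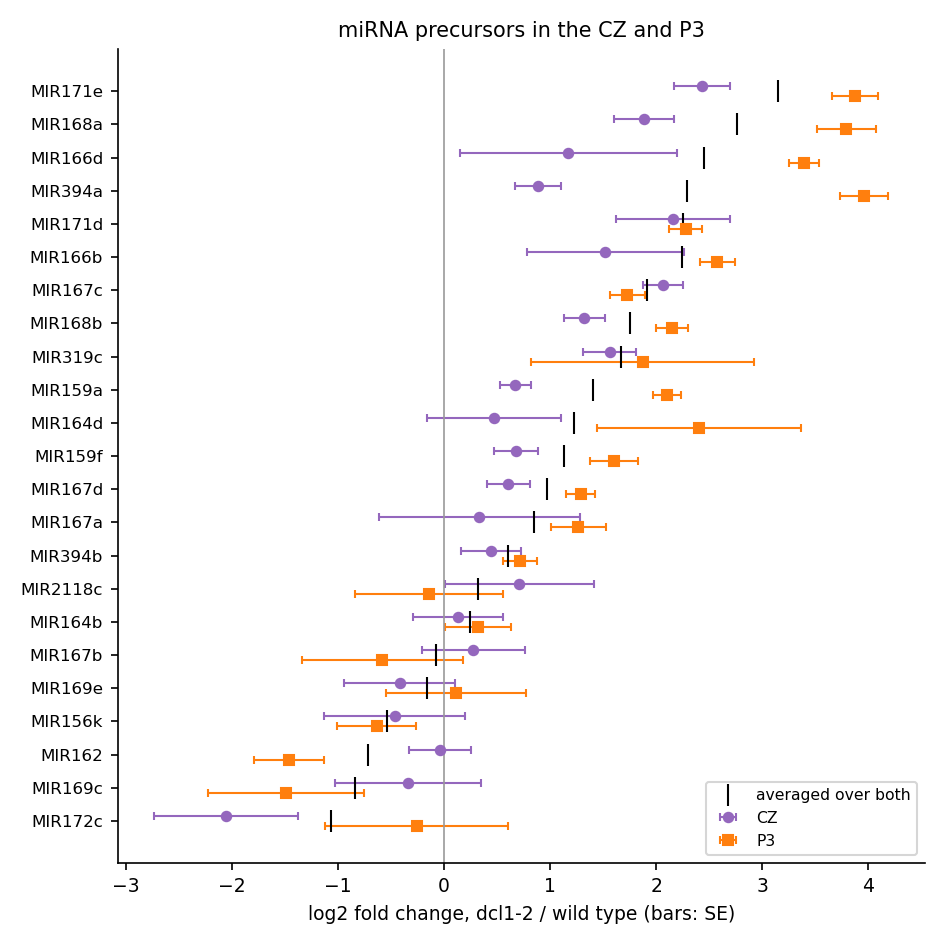
Log2 fold change (dcl1-2 over wild type) of the 23 precursors kept, with the CZ as purple circles, P3 as orange squares, bars of 1 SE and a black tick at the averaged effect. The upper precursors are positive in both tissues, and the P3 square lies right of the CZ circle in 17 of the 23.

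Among miRNA targets, the 1 that passed the averaged test belongs to the miR169 family. Mature miR169 pairs with mRNAs of NF-YA genes, which encode the sequence-specific subunit of the CCAAT-binding factor NF-Y. All 9 miR169 targets of the study were kept, 1 rose, 8 did not pass, and 7 of the 9 were apart and higher in dcl1-2 in both tissues (77.8%, beside 3.46% of all genes). Among the 7, GRMZM5G829103 in the CZ and NF-YA13 in P3 were kept through dcl1-2 alone. Their wild-type means there were 0.454 and 0.884 RPM, so the share includes genes that their rise let through the filter. The median log2 fold change of the 9 was 0.62 averaged, 0.63 in the CZ and 0.70 in P3. The predicted sites in the 9 mRNAs all hold the 7 bases that match the seed of miR169, shown in capitals, and differ outside it.
GRMZM5G829103: uaggcaaaucauuCUUGGCUg
NF-YA4 (GRMZM5G853836): uaggcaaaucauuCUUGGCUg
NF-YA11 (GRMZM2G165488): uaggcaaaucauuCUUGGCUg
NF-YA13 (GRMZM5G857944): caggcaauucaucCUUGGCUu
NF-YA14 (GRMZM2G038303): guggcaacucaucCUUGGCUu
GRMZM2G000686: cuggcaacucaucCUUGGCUu
CA2P16 (GRMZM2G091964): caggcaauucauuCUUGGCUu
NF-YA7 (GRMZM2G040349): guggcaacucaucCUUGGCUc
GRMZM2G037630: guggcaauucaucCUUGGCUu
miR169c and miR169r: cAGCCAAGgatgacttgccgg
miR169f and miR169h: tAGCCAAGgatgacttgccta
The sites are in the order of the averaged change, from 1.60 in GRMZM5G829103 to -0.16 in GRMZM2G037630, and the first 3, which share 1 site sequence, had the highest values. In the wild-type apex small RNA library miR169c and miR169r had 20 reads, as did miR169f and miR169h. The sequences of the called precursors had 1852 reads or more there. The kept precursors MIR169c and MIR169e did not pass, at -0.85 and -0.16 averaged (edgeR adjusted p = 0.773 and 0.963).

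NF-YA4, at chr1:174849414-174850967 and 170 Mb from DCL1, was the called one. It had 75.3 and 77.4 RPM in dcl1-2 CZ, against 20.3 and 25.6 RPM in wild-type CZ. P3 libraries had 41.4 and 35.5 RPM in dcl1-2, against 15.2 and 19.2 RPM in wild type. All 4 dcl1-2 libraries were above all 4 wild-type libraries. It rose by 1.50 ± 0.15 averaged (adjusted p = 0.00143), by 1.70 ± 0.18 in the CZ and by 1.23 ± 0.21 in P3 (adjusted p = 0.00342 and 0.00269), and the difference between the tissues did not pass (adjusted p = 0.422).

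GRMZM5G829103 was scarce in the CZ, at 1.37 and 2.18 RPM in dcl1-2, against 0.495 and 0.413 RPM in wild type. In P3 it had 21.3 and 16.9 RPM in dcl1-2, against 5.90 and 10.2 RPM in wild type. Its averaged change of 1.60 ± 0.30 had an adjusted p of 0.0943 (DESeq2 0.000575, limma-voom 0.0991). NF-YA11 had 13.2 and 11.9 RPM in dcl1-2 CZ, against 7.02 and 6.72 RPM in wild-type CZ, and 14.3 and 28.7 RPM in dcl1-2 P3, against 9.83 and 8.00 RPM in wild-type P3 (1.09 ± 0.25, adjusted p = 0.24, DESeq2 0.0102). NF-YA13, NF-YA14, GRMZM2G000686 and CA2P16 had averaged values between 1.01 and 0.41 with adjusted p between 0.408 and 0.576. The average contrast of the edgeR model with 4 groups passed GRMZM5G829103 (adjusted p = 0.0155) and NF-YA11 (0.0405). NF-YA13, NF-YA14, GRMZM2G000686 and CA2P16 did not pass it (0.0675 to 0.241). NF-YA7 is the member with opposite signs, 0.46 ± 0.16 in the CZ and -0.36 ± 0.17 in P3, with an adjusted p of 0.0723 for the difference.

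**Figure D4:**
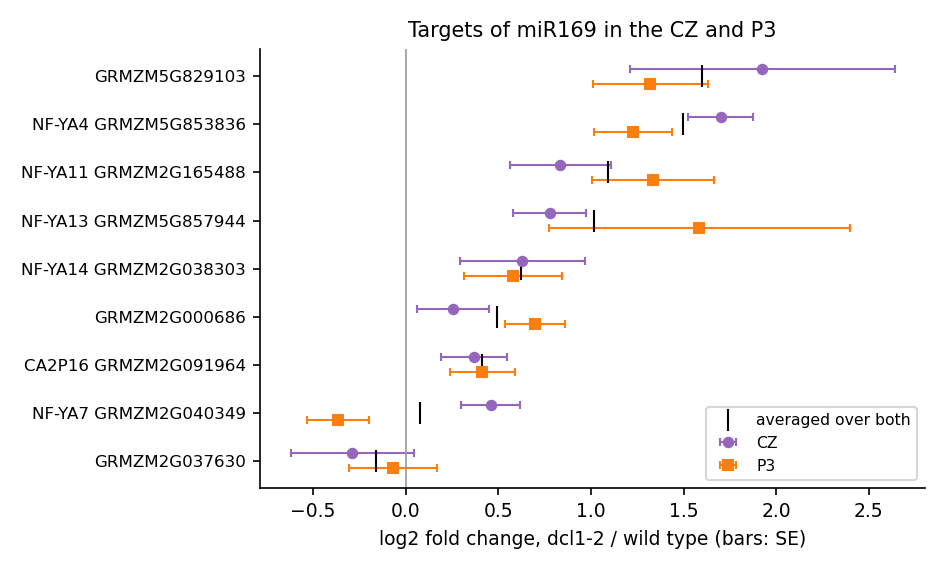
Log2 fold change (dcl1-2 over wild type) of the 9 miR169 targets, with the CZ as purple circles, P3 as orange squares, bars of 1 SE and a black tick at the averaged effect. NF-YA4 is the only one that passed the averaged test of the additive model, and both tissues are positive in all but NF-YA7 and GRMZM2G037630.

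Of the 153 targets, 93 were kept, 1 rose (NF-YA4), 0 fell and 92 did not pass in the additive edgeR fit, while DESeq2 passed 7 and limma-voom 4. An unadjusted p under 0.05 was reached by 25 higher and 1 lower target, beside 757 higher and 591 lower of all genes, together 7.14%. The averaged median of the 93 was 0.21, with 0.03 in the CZ and 0.25 in P3. Apart and higher in both tissues were 18 (19.4%), and without the miR169 targets 11 of 84 (13.1%), beside 3.46% of all genes. Among the 11, the miR171 target GRMZM2G051785 was kept in P3 through dcl1-2 alone, at 0.724 and 0.696 RPM in wild-type P3.

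None of these 11 passed the additive edgeR test. Besides DCL1 and the AGO1 gene GRMZM2G441583 they include GRF12 and GRF14, growth-regulating factors targeted by miR396, and ub3, an SBP-box factor of the miR156 family. GRF12 had 80.7 and 78.2 RPM in dcl1-2 CZ, against 64.1 and 59.0 RPM in wild-type CZ, and 224 and 245 RPM in dcl1-2 P3, against 135 and 147 RPM in wild-type P3 (0.59 ± 0.12, adjusted p = 0.132, DESeq2 0.0022, limma-voom 0.0499). GRMZM2G139700, a target of miR164, had 9.57 and 10.7 RPM in dcl1-2 CZ, against 4.35 and 7.36 RPM in wild-type CZ, and 16.3 and 24.7 RPM in dcl1-2 P3, against 7.66 and 3.83 RPM in wild-type P3 (1.32 ± 0.34, adjusted p = 0.366, DESeq2 0.016). The lone target apart and lower in both tissues was GRMZM2G034876, named GRF1 in the name table, at -0.39 ± 0.13 (adjusted p = 0.581).

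Targets of the miRNAs whose precursors rose did not pass the averaged test. None of the 6 kept miR167 targets and none of the 7 kept miR166 targets passed it, with averaged medians of -0.05 and 0.32. In P3 alone 4 of the 7 miR166 targets passed, all higher in dcl1-2, beside 818 of the 18883 genes kept. The test of the difference between tissues was passed by 4 of the 7, beside 3.2% of all genes. The medians of the 7 were -0.19 in the CZ and 0.80 in P3. For miR171, 0 of 6 passed at a median of 0.34, and for miR168, 0 of 2 at 0.10. At an unadjusted p under 0.05 the numbers for miR167, miR166, miR171 and miR168 were 0, 1, 3 and 1, beside 7.14% of all genes. DESeq2 and limma-voom passed 0 in each.

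Of the 54 genes of the miRNA pathway listed by the study, from transcription of precursors to turnover, 44 were kept. None passed the additive edgeR test, and 4 of the 44 had an unadjusted p under 0.05, beside 7.14% of all genes. DESeq2 and limma-voom each passed 1, DCL1. The averaged median was 0.07. The gene GRMZM2G079080 is listed under AGO10, the Argonaute known in Arabidopsis for holding miR166 away from AGO1 in the meristem. It had 20.3 and 23.6 RPM in dcl1-2 CZ, against 44.7 and 49.1 RPM in wild-type CZ, and 74.9 and 80.6 RPM in dcl1-2 P3, against 99.0 and 83.8 RPM in wild-type P3. It was thus apart and lower in both tissues, but with -1.13 ± 0.18 in the CZ (adjusted p = 0.0335) and -0.17 ± 0.15 in P3 (adjusted p = 0.622) the change differed between them (adjusted p = 0.0396), and the averaged effect of -0.63 ± 0.19 did not pass (adjusted p = 0.473). The average contrast of the edgeR model with 4 groups gave an adjusted p of 0.016. Another gene listed under AGO10, AC189879.3_FG003, overlapped between genotypes in both tissues. Its change was 0.15 ± 0.22 in the CZ, 0.01 ± 0.13 in P3 and 0.10 ± 0.15 averaged (adjusted p = 0.93).

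Called genes were frequent around DCL1, which lies at chr1:4607185-4614592. Of the 183 genes kept within 5 Mb of it, 7 were called (3.83%, beside 0.127% of all genes), and no further gene was called out to 100 Mb. Within those 5 Mb, 12 genes were apart and higher and 31 apart and lower in dcl1-2 in both tissues, together 23.5% beside 7.77% of all genes. Between 5 and 10 Mb the share was 9.09% and on the other chromosomes 7.55%. Genotype at these genes and the dcl1-2 allele go together in the introgressed plants, so the effect of the allele and that of linked sequence cannot be told apart here. The count of 7 was 2 to 5 when any 1 library was left out.

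**Figure D5:**
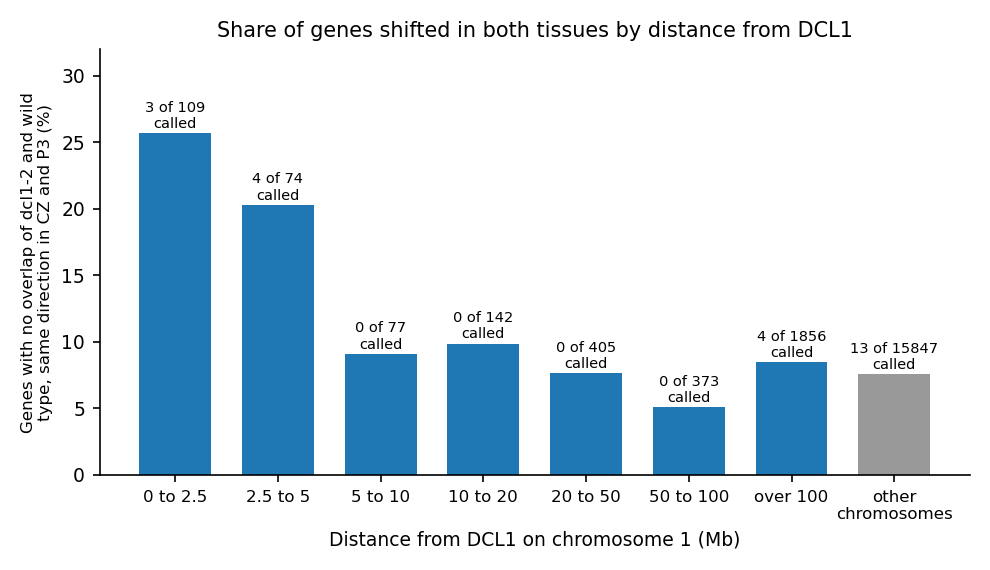
Share of genes (percent) whose dcl1-2 and wild-type libraries do not overlap and differ in the same direction in the CZ and P3, by distance from DCL1 on chromosome 1 (blue) and on the other chromosomes (grey), with the called genes of the genes kept above each bar. The share is 25.7% and 20.3% in the first 2 bins and between 5.09% and 9.86% in the others.

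Besides MIR171e and its inner model, 5 genes made up this cluster. GRMZM2G448701, 1.54 Mb from DCL1, was nearly silent in dcl1-2, with 7 and 11 counts in dcl1-2 CZ, against 156 and 96 in wild-type CZ, and 4 and 6 counts in dcl1-2 P3, against 34 and 22 in wild-type P3 (-3.10 ± 0.47, adjusted p = 0.0307). With dcl1-2 means of 0.359 RPM in the CZ and 0.511 RPM in P3, it was kept in both tissues through wild type alone. The called genes near DCL1 thus include a gene kept only through the genotype where it is high. GRMZM2G137352, 1.65 Mb away, had 11.8 and 12.2 RPM in dcl1-2 CZ, against 2.90 and 3.83 RPM in wild-type CZ, and 25.9 and 24.7 RPM in dcl1-2 P3, against 1.86 and 1.51 RPM in wild-type P3 (2.76 ± 0.40, adjusted p = 0.0244). Its rise was larger in P3 (CZ minus P3 -2.18 ± 0.46, adjusted p = 0.0229).

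GRMZM2G159427, 0.383 Mb away, fell by 1.33 on the log2 scale, with 7.72 and 8.01 RPM in dcl1-2 CZ, against 14.2 and 19.4 RPM in wild-type CZ, and 7.60 and 6.20 RPM in dcl1-2 P3, against 22.2 and 20.9 RPM in wild-type P3. GRMZM2G461427, 2.82 Mb away, had 210.1 and 199.9 RPM in dcl1-2 CZ, against 327 and 380 RPM in wild-type CZ, and 100.6 and 98.5 RPM in dcl1-2 P3, against 257 and 256 RPM in wild-type P3 (-1.04 ± 0.12, adjusted p = 0.00567). It overlaps GRMZM2G161560 on the other strand, whose averaged change was -0.64 (adjusted p = 0.0573), and reads of the pair cannot be told apart. GRMZM2G093399, 4.47 Mb away, was higher in dcl1-2 at 1.16 ± 0.19 (adjusted p = 0.0457), with 1.47 in the CZ and 0.76 in P3. Of these 5, only GRMZM2G461427 passed with each of the 8 libraries left out in turn. The adjusted p of GRMZM2G448701 was 0.0522 to 0.137 and that of GRMZM2G093399 0.071 to 0.183 in those fits.

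Away from DCL1 and from precursors, 7 genes were called, 5 higher and 2 lower. NF-YA4 is given above. BIF1 (GRMZM2G130953, chromosome 8), an Aux/IAA repressor of auxin response known for its part in organ initiation on the inflorescence, had 44.3 and 51.9 RPM in dcl1-2 CZ, against 123 and 101 RPM in wild-type CZ. In P3 it had 14.8 and 8.81 RPM in dcl1-2, against 25.5 and 22.0 RPM in wild type. It fell by 1.1 averaged (SE 0.17, adjusted p = 0.0313), by 1.25 in the CZ (adjusted p = 0.00836) and at -0.95 did not pass in P3 alone (adjusted p = 0.0696). Its adjusted p was between 0.00957 and 0.145 with 1 library left out, the highest without wild-type P3 replicate 1.

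GRMZM2G085964 (chromosome 6) also fell evenly, with 14.95 and 17.2 RPM in dcl1-2 CZ, against 43.7 and 39.7 RPM in wild-type CZ, and 5.95 and 9.88 RPM in dcl1-2 P3, against 20.1 and 21.2 RPM in wild-type P3. Its log2 fold change was -1.34 ± 0.17 averaged (adjusted p = 0.00937), -1.41 in the CZ and -1.31 in P3. GRMZM2G700891 (chromosome 6) rose in both, with 61.7 and 62.0 RPM in dcl1-2 CZ, against 16.2 and 11.5 RPM in wild-type CZ, and 9.47 and 7.94 RPM in dcl1-2 P3, against 2.38 and 3.48 RPM in wild-type P3 (1.96 ± 0.19, adjusted p = 0.00122). The name table gives no name for these genes.

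GRMZM2G065394 (chromosome 9) had 34.1 and 42.9 RPM in dcl1-2 CZ, against 15.4 and 15.1 RPM in wild-type CZ, and 12.4 and 9.88 RPM in dcl1-2 P3, against 1.24 and 3.59 RPM in wild-type P3 (1.72 ± 0.28, adjusted p = 0.0482), and did not pass in any of the 8 fits with 1 library left out (adjusted p 0.0514 to 0.146). GRMZM2G389567 (chromosome 1, 206 Mb from DCL1) and AC199526.5_FG002 (chromosome 3) both rose by 1.15 (adjusted p = 0.0218 and 0.00753), with 0.97 and 0.77 in the CZ and 1.29 and 1.34 in P3. AC199526.5_FG002 was at 2.42 and 2.54 RPM in dcl1-2 CZ, against 1.42 and 1.43 RPM in wild-type CZ, and at 165 and 147 RPM in dcl1-2 P3, against 63.5 and 65.7 RPM in wild-type P3.

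Among the 4 genes other than MIR167d that passed with less than a 2-fold change was OBF1 (GRMZM2G479885), a bZIP factor named for binding the ocs element. It had 239 and 229.8 RPM in dcl1-2 CZ, against 167 and 144.0 RPM in wild-type CZ, and 202 and 209 RPM in dcl1-2 P3, against 85.1 and 77.9 RPM in wild-type P3. Its rise was 0.56 ± 0.13 in the CZ and 1.40 ± 0.14 in P3, larger in the leaf (CZ minus P3 -0.85 ± 0.19, adjusted p = 0.0285). GRMZM2G087207, 0.584 Mb from DCL1, rose by 0.90 with nearly equal parts, 0.93 in the CZ and 0.83 in P3. GRMZM2G079127 and GRMZM2G123029 rose by 0.94 and 0.80.

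The remaining 29 lists, by gene symbol, covered regulators of the meristem and leaf, hormone pathways, transcription factor families and housekeeping groups. Of these, 1 had a member that passed, the auxin genes, of which 26 were kept, 0 rose, 1 fell (BIF1) and 25 did not pass. In the auxin list AUX3, another Aux/IAA gene, was at -0.63 averaged, -0.71 in the CZ and -0.58 in P3 (adjusted p = 0.0905, DESeq2 and limma-voom passing 2 auxin genes each). None of the 8 kept class I KNOX genes and none of the 8 regulators of meristem size passed, nor did any of 13 YABBY, KANADI and rs2 genes, 4 HD-ZIP III genes or 4 HD-ZIP IV genes. At an unadjusted p under 0.05 these lists held 1, 0, 3, 0 and 1 members, beside 7.14% of all genes, and DESeq2 and limma-voom passed none of them. HSF2, a heat shock factor, was at 0.95 in the CZ and 0.93 in P3, with an averaged adjusted p of 0.0878.

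Over all genes tested, the CZ and P3 changes, which share no library, had a Pearson r of -0.001 and a Spearman rho of -0.13 across the 18883 genes, and genes are not independent replicates. Their signs were the same in 44.6% of genes. The test of the difference between tissues was passed by 604 genes (3.2%), of which 527 had opposite signs in the tissues and 77 the same sign, and 5 were among the 24 called genes. Those 5 were MIR171e, GRMZM2G137352 and the 3 models of the MIR168a locus. This count was 153 without dcl1-2 P3 replicate 2, 184 without wild-type P3 replicate 2 and 317 to 867 without any other library.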

How the data were processed

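The data were 8 RNA-seq libraries of laser-microdissected CZ and P3 tissue (2 per genotype and tissue) and 1 small RNA library, used for mature sequences and their read counts. Per the labels and methods, the authors used Trimmomatic and TopHat with B73 RefGen_v3 and deposited unnormalized counts of uniquely mapping reads for genes and curated precursor models. For small RNA, the authors deposited counts of mature sequences, trimmed with cutadapt 1.13 and aligned with Bowtie 1.1.2. The labels and the methods name different kits for the linear amplification. Printed positions and distances are those of the count table, whose precursor positions differ from those of the study's own precursor list, so the build behind them is not settled.

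RPM was computed as count over column total. 1 blank count cell was read as 0, and all 45498 table entries name a gene. Tests used edgeR 4.0.16 (quasi-likelihood, TMM, R 4.3.3, limma 3.58.1), with tissue plus genotype as terms, and Benjamini-Hochberg adjustment over the 18883 genes kept. The tissues were fitted separately for the CZ and P3 values, and the difference came from a model with 4 groups. SE is the absolute log2 fold change over the square root of F. DESeq2 1.42.0 and limma-voom were alternatives, with other scalings, filters, a replicate block and each library left out. Target sites, targets and pathway genes came from the study's supplemental data, other lists from symbols in a RefSeq table (assembly Zm-B73-REFERENCE-NAM-5.0). It matched 18883 table entries, 520 to more than 1 name. Python 3.11.15, numpy 2.4.6, pandas 2.3.3, scipy 1.17.1 and matplotlib 3.10.9 were used.

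Named were DCL1, precursors, pathway genes and targets that passed with the models overlapping them, genes passing the test in both tissues, the 10 highest and 10 lowest called genes at 5 RPM or more, up to 4 passing members per list and the 10 called genes nearest DCL1. All other genes named were chosen after their values were seen. The members, lists and tests were chosen with earlier results of these data known. In simulated data for the averaged effect, 200 of 18883 genes were changed, each by the same amount in both tissues. By an adjusted p under 0.05 alone, without the 2-fold cutoff, the recovery was 81% at a log2 change of 1 and 95% at 2. Of the genes that passed in this way, 9.28% were unchanged ones. Recovery of genes whose change differs in size between the CZ and P3 was not tested. The test of that difference was passed by 604 of the 18883 genes. Labels call the libraries replicates, and the methods describe biological replicates, each dissected from several independent apices. The p-values of the fits within a tissue and of the model with 4 groups measure the spread between these libraries. Those of the additive model also count a gap in the change between tissues as error.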

Additional observations from a re-analysis of the deposited data

Results flagged for a closer look

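The effect of dcl1-2 differed between the CZ and P3 by an interaction test (edgeR, adjusted over 18883 genes) in several of the genes and precursors described. All of the following differences are CZ minus P3 on the log2 scale, and each is negative. MIR394a differed by -3.10 ± 0.31 (adjusted p = 0.000352) and MIR159a by -1.45 ± 0.20 (adjusted p = 0.00234), both with a rise in P3 that was more than that in the CZ. MIR171e differed by -1.46 ± 0.35 (adjusted p = 0.0396). MIR168a and GRMZM5G899308, which have the same counts, differed by -1.93 ± 0.39 (adjusted p = 0.0188), and GRMZM2G049727 at the same locus by -1.93 ± 0.39 (adjusted p = 0.0187). GRMZM2G137352, 1.65 Mb from DCL1, differed by -2.18 ± 0.46 (adjusted p = 0.0229), and the bZIP gene OBF1 (GRMZM2G479885) by -0.85 ± 0.19 (adjusted p = 0.0285). In these 8 models the change was positive in both tissues. The AGO10 gene GRMZM2G079080 differed by -0.97 ± 0.23 (adjusted p = 0.0396), with the larger fall in the CZ.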

How the results depend on the processing

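Other settings left the direction of all 31 genes followed singly as it was, and 120 of 521 such values lost the adjusted p of 0.05, 92 of them with 1 library left out and 18 with the block, while 5 gained it. All 24 calls were also made by DESeq2, limma-voom, the average contrast of the model with 4 groups and the fit with no filter on the mean. With no filter, DESeq2, limma-voom and the average contrast, the calls were 93, 85, 52 and 156, those apart in both tissues 64, 80, 42 and 94, and those within 5 Mb of DCL1 11, 13, 9 and 16. Without precursors and the models overlapping them 12 genes were called, all apart in both tissues. With 1 library left out, the calls and those apart in both tissues ranged from 9 to 32 and those near DCL1 from 2 to 5, and 9 genes stayed called throughout (MIR167c, MIR171d, MIR171e, their inner models GRMZM5G801939, GRMZM2G051942 and GRMZM2G092592, MIR168b, NF-YA4 and GRMZM2G700891). The test in both tissues passed 17 genes with DESeq2, 12 with the contrasts of 4 groups and 4 to 17 with 1 library left out. The difference between tissues passed 1014 genes with DESeq2 and 153 to 867 with 1 library left out. By settings chosen after seeing the data, the calls within the CZ were 49, against 210 with DESeq2 and 41 to 378 with 1 library left out, and within P3 622, against 438 to 787 with 1 library left out. The Pearson r of the CZ and P3 changes was -0.086 to 0.022 with 1 library left out.

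Replicate numbers did not pair the libraries: deviations of equal numbers correlated at 0.076 in the CZ and 0.016 in P3. With the replicate number as a block, 10 genes were called, 10 apart in both tissues and 2 near DCL1, the test in both tissues passed 15, the difference 850, and 198 and 886 genes were called within the CZ and P3.

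With 2 libraries per group the spread is known from few values, and low precursor counts limit the CZ most, where MIR166b and MIR171d had under 120 counts per library.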

Other observations

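The largest averaged fold changes were mostly not called. Of the 15 genes with the largest averaged log2 fold change in size, 12 were lower in dcl1-2 and 3 were called (MIR171e, GRMZM2G092592 and GRMZM2G448701). Several of the others rest on 1 wild-type library of each tissue, wild-type CZ replicate 1 and wild-type P3 replicate 2. The gene hsbp1 (GRMZM2G085924) had 0 and 0 counts in dcl1-2 CZ, against 382 and 0 in wild-type CZ, and 0 and 0 in dcl1-2 P3, against 1 and 108 in wild-type P3. The gene bx1, which starts benzoxazinoid synthesis, had 3 and 4 counts in dcl1-2 CZ, against 124 and 0 in wild-type CZ, and 3 and 0 in dcl1-2 P3, against 7 and 183 in wild-type P3. GRMZM2G162537 had 0 counts in all 4 dcl1-2 libraries, against 67 and 0 in wild-type CZ and 0 and 93 in wild-type P3.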
